A study of Mus musculus with 4 samples.

Results

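Mitochondrial ribosomal protein genes were described in differentiating mouse C2C12 cells with and without depletion of the histone demethylase LSD1. The members were taken as the genes whose symbol is Mrpl or Mrps followed by a number and, in some, a letter a, b or c, on probe sets assigned to 1 gene symbol. This gave 156 probe sets and 76 genes of 18193 measured, 47 named for the large subunit (Mrpl) and 29 for the small subunit (Mrps). Each gene was represented by its probe set with the highest mean log2 signal, and _x_at probe sets, which may bind other transcripts, were passed over if the gene had one of another type. All 76 genes were bright enough to be tested among 10879 genes in all. Mrpl30 and Mrpl53 lie only on probe sets shared with another gene and were not analysed here.

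C2C12 is an immortalised mouse myoblast line whose cells fuse into myotubes when serum is lowered. All cells carried a stably integrated SureSilencing plasmid selected with hygromycin B. The plasmid encoded either a non-targeting hairpin (shControl, 2 arrays) or a hairpin against LSD1 (shLSD1, 2 arrays). The DMEM for growth held 10% fetal bovine serum with hygromycin B at 750 µg/mL in both groups, and that for differentiation held 2% horse serum, each with glucose at 25 mM. RNA was taken 48 hours after differentiation began. The labels describe 1 hairpin against LSD1 and no second selection of either plasmid, so effects of the selection and of the knockdown cannot be told apart. They do not say that arrays of a group came from separate cultures. The p-values therefore rest on the spread between arrays alone, and that spread may be technical.

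The mitochondrial ribosome translates the few messenger RNAs encoded by mitochondrial DNA, all of them for subunits of the respiratory chain and the ATP synthase. Its RNA comes from mitochondrial DNA, but its proteins are encoded in the nucleus, made in the cytosol and imported. Some have bacterial counterparts and others are found only in mitochondria. In muscle, mitochondria expand as myoblasts differentiate, and loss of single mitochondrial ribosomal proteins is known to cause inherited respiratory chain defects.

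Kdm1a, which encodes LSD1, had a signal of 4603 and 4588 in the shControl arrays and of 922 and 1034 in the shLSD1 arrays. The log2 difference was -2.23 (SE 0.07, limma with Benjamini-Hochberg adjustment over all genes tested, adjusted p = 2.89e-05), and 21.3% of the control level was left. The signals are MAS5 intensities on a linear scale, with a median of 67.3 to 69.7 over the probe sets of each array. Of 6 myotube markers 5 fell, and their summed signal ranged from 115134 to 117356 in shControl and from 78835.7 to 86608.1 in shLSD1. All 3 measured markers of cycling cells rose, with a summed signal of 6667 to 6671 in shControl and 7992 to 8518 in shLSD1. Of 3 myoblast markers Myf5 rose (1.28), while Pax7 lay at -0.65 with no overlap (limma adjusted p = 0.0741) and Myod1 at -0.17 (limma adjusted p = 0.319). These markers moved with the groups in every comparison that follows, and their part in the results was not tested. None of the 4 adipocyte markers measured (summed signal 30.9 to 51.0 in shControl and 47.0 to 54.8 in shLSD1) or the 4 endothelial markers (123 to 125 and 141 to 192) was bright enough to test. Of 4 macrophage markers (203 to 254 and 199 to 209) Csf1r alone was. Its signal was 112 and 125 in shControl and 128 and 84.4 in shLSD1.

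Mitochondrial ribosomal protein genes differed little between the groups. Of the 76 genes, 1 rose and 0 fell at an adjusted p under 0.05, in a comparison in which 15.8% of all genes tested passed (8.75% rose and 7.09% fell). Over all genes the balance of calls, 952 that rose and 771 that fell, turned with median centring, to 846 and 897. The members' median log2 difference was -0.03, against 0.00 over all genes tested. The middle 50% of the members lay between -0.11 and 0.02, against -0.13 and 0.17. The whole range was from -0.26 (Mrpl38) to 0.20 (Mrpl33). No member passed a log2 difference of 0.5 in size, a size that 10.9% of all genes tested passed. Members were on the whole brighter than the average tested gene. Among the 7454 genes at least as bright as the dimmest member, 18.4% passed the threshold.

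The members' values were on the whole more precise than those of all genes tested, as far as the spread between arrays can tell. The median standard error of a member's log2 difference was 0.07, against 0.10 over all genes tested. It was lower still for tested cytosolic ribosomal protein genes (0.04) and oxidative phosphorylation subunits (0.05). The fit lets variance follow signal, and members were brighter than the average tested gene. The part of brightness in these errors was not tested. For 61 of the 76 members the 95% confidence interval from the fit, taken gene by gene, lay within a 1.25-fold change in either direction, and for 75 it lay within 1.5-fold. The exception was Mrpl38, with an interval from -0.62 to 0.11. Of all 10879 genes tested, 3830 had an interval within 1.25-fold and 7614 had one within 1.5-fold. These intervals rest on spread that may be technical. Replicate arrays of shControl differed by a median of 0.05 on the log2 scale for a member and those of shLSD1 by 0.07. Group means differed by a median of 0.08 in size, and over all genes tested by 0.15. A difference between means of 2 arrays varies less than one between single arrays, so these values are not on an equal footing.

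**Figure D1:**
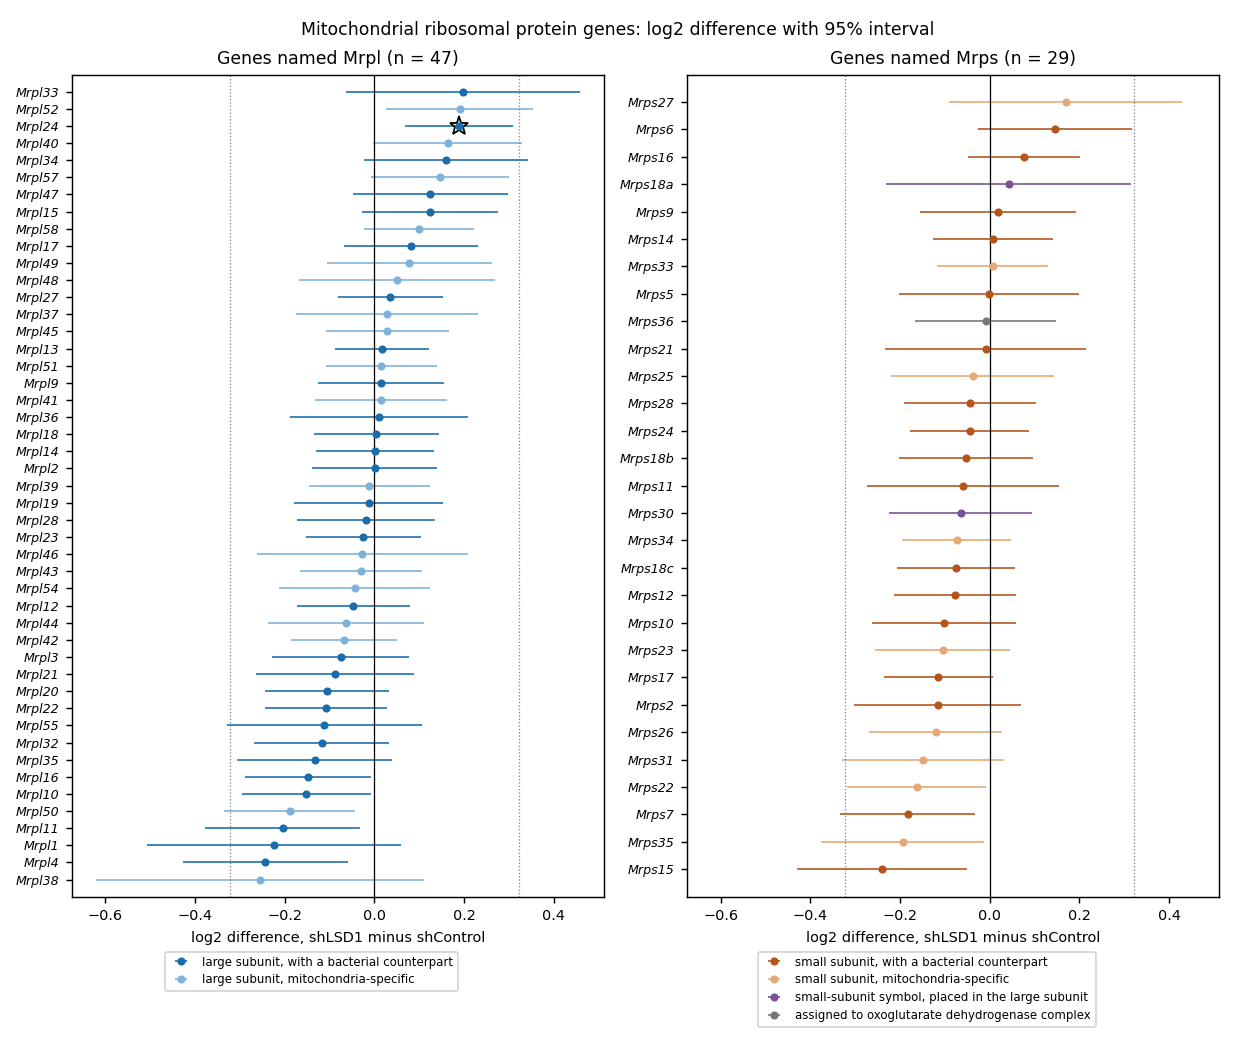
Log2 difference, shLSD1 minus shControl, of each of the 76 members with its 95% confidence interval from limma, with 47 genes named Mrpl on the left and 29 named Mrps on the right, coloured by subunit and origin. Dotted lines mark a 1.25-fold change and the star marks Mrpl24, the 1 gene past the threshold; the points run from -0.26 to 0.20.

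The summed signal of the members was likewise close in the arrays. The shControl arrays summed to 157095 and 156847, and the shLSD1 arrays to 155211 and 155140. The median member signal was 1850 and 1878 in shControl against 1783 and 1824 in shLSD1. Both shLSD1 arrays lay below both shControl arrays on each measure, by a small margin. In bulk samples a smaller number of cells with these transcripts and a lower level in each cell cannot be told apart. Of the 76 members, 46 had a log2 difference below 0 and 30 above it. With each array centred on its median, the split was 57 below and 19 above. Centring also moved the median over all genes tested, from 0.004 to -0.017, so the change in the split was not particular to the members.

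Among members, groups that did not overlap were rarer above the controls than over all genes tested, and about as common below. In 26 of the 76 members both shLSD1 arrays lay below both shControl arrays, a pattern found in 29.4% of all genes tested. In 14 of the 76 they lay above, against 30.7% of all genes tested. At an unadjusted limma p under 0.05, 11 members passed, 9 lower and 2 higher. Of all genes tested 31% passed, 14.3% lower and 16.6% higher.

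Mrpl24 was the only member past the threshold. It encodes the counterpart of a bacterial protein that sits beside the exit of the tunnel through which the new chain leaves the large subunit. Its signal was 3451 and 3327 in the shControl arrays and 3907 and 3819 in the shLSD1 arrays, so both knockdown arrays were higher than both controls. The log2 difference was 0.19 (SE 0.05, 95% interval 0.07 to 0.31, limma adjusted p = 0.0469). The call was lost without shControl replicate 1 (0.22, limma adjusted p = 0.181), without shControl replicate 2 (0.16, limma adjusted p = 0.287) and without shLSD1 replicate 1 (0.17, limma adjusted p = 0.0655). Median centring ended it too (limma adjusted p = 0.0863), as did testing all genes (0.0764 by limma), a fit with no trend of variance on intensity (0.174) and averaging probe sets by gene (0.0693). The difference stayed above 0 in each. Mrpl24 has a single probe set, so averaging left its difference at 0.19 and altered only the other genes in the fit.

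The promoters are shown for Mrpl24 and for 3 other members to set the 1 gene that passed beside members that did not. Each window runs from 250 bases before to 30 bases after the RefSeq transcript start in GRCm38.p6, and reads 5′ to 3′ on the gene's strand. The windows lie at chr3:87919294-87919573 (plus strand, Mrpl24), chr14:54426659-54426938 (plus strand, Mrpl52), chr7:28741792-28742071 (minus strand, Mrps12) and chr11:115603890-115604169 (plus strand, Mrps7). Capitals mark matches on either strand to CCGGAAG, the core bound by ETS factors such as GABPA, to AAGATGGC, the core bound by YY1, and to GCATGCGC, the core bound by NRF1.
Mrpl24: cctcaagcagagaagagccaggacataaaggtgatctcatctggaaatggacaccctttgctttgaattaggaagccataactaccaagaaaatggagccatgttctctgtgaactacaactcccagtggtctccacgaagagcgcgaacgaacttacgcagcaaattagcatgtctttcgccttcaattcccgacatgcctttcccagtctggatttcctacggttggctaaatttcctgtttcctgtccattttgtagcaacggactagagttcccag
Mrpl52: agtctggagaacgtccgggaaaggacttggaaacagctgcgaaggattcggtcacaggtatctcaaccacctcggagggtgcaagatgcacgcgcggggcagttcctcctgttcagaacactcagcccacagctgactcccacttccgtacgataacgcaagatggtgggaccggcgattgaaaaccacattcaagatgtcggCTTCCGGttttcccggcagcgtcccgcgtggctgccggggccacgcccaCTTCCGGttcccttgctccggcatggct
Mrps12: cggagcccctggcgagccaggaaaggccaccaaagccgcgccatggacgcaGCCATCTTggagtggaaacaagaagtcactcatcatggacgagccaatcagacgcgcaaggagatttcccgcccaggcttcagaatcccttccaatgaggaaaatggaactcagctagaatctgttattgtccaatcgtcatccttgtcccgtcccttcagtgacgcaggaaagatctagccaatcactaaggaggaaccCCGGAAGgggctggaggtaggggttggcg
Mrps7: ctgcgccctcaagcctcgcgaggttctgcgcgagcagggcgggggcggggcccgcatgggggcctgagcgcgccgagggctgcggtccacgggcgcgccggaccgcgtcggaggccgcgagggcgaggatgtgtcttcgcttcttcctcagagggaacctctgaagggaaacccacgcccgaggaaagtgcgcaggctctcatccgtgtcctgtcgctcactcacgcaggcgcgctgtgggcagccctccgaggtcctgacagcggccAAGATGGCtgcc
The Mrpl24 window held 0 matches, that of Mrpl52 held 2 of the ETS core, that of Mrps12 held 1 of the ETS core and 1 of the YY1 core, and that of Mrps7 held 1 of the YY1 core.

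A window could be matched through the gene ID for 67 of the 76 members and for 8818 of the genes tested. The ETS core was found in 23 of the 67 members (34.3%), against 20.2% of the genes tested. The YY1 core was found in 8 (11.9%, against 4.31%) and the NRF1 core in 8 (11.9%, against 6.03%). No member window had overlapping matches to the ETS and YY1 cores. A match to any of the cores was found in 32 of the 67 members (47.8%, against 27.8% of the genes tested). The other 35, Mrpl24 among them, had no match. The members shown beside Mrpl24 all had a match, but the lack of a match was shared with members that did not pass. Members with the ETS core had a median log2 difference of 0.02, with 13 of 23 above 0, and the 44 without it had a median of -0.04, with 15 above 0. For the YY1 core the median was -0.0253 in members with it and -0.0246 in those without. For the NRF1 core it was -0.0319 with and -0.0246 without. These differences were not tested, and a match is a run of letters and not a measured binding site. Gabpa itself, which encodes the DNA-binding subunit of GABP, had a signal of 2451 and 2669 in shControl and 2715 and 2936 in shLSD1 (log2 difference 0.14, SE 0.07, limma adjusted p = 0.204). Gabpb1, for another subunit of GABP, lay on the other side of 0. Its signal was 298 and 326 in shControl and 287 and 273 in shLSD1 (-0.15, SE 0.13, limma adjusted p = 0.465).

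The 47 members named for the large subunit had a median log2 difference of -0.01, with 24 below 0 and 23 above. The 29 named for the small subunit had a median of -0.06, with 22 below 0 and 7 above, and the difference between the subunits was not tested. Large-subunit members with a bacterial counterpart had a median of -0.02 over 29 genes, and those found only in mitochondria a median of 0.01 over 18 genes. In the small subunit, 17 genes with a bacterial counterpart had a median of -0.05 and 9 found only in mitochondria a median of -0.10. The lowest median of these groups was thus that of the mitochondria-specific small-subunit genes, where 7 of 9 lay below 0 and 0 passed the threshold.

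The stalk that recruits translation factors to the large subunit was represented by 3 members, all below 0. Mrpl11, at the base of the stalk, had a signal of 2237 and 2167 in shControl and 1795 and 2032 in shLSD1, with no overlap. Its log2 difference was -0.20 (SE 0.07, limma adjusted p = 0.104). Its other probe sets above the filter, both of the _x_at type that may bind other transcripts, gave -0.25 and -0.27. Mrpl10, which anchors the stalk, had a signal of 1620.5 and 1627 in shControl and 1448 and 1475 in shLSD1, again with no overlap (log2 difference -0.15, SE 0.06, limma adjusted p = 0.142). Mrpl12, the stalk protein that contacts the factors, had a signal of 3611 and 3409 in shControl and 3411 and 3381 in shLSD1. The groups overlapped for Mrpl12, at a log2 difference of -0.05 (95% interval -0.17 to 0.08).

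Around the exit of the nascent chain, 8 members had a median of 0.01, and Mrpl24 was the 1 that rose. Mrpl45, which holds the ribosome against the inner membrane where new respiratory subunits are inserted, had a signal of 1759 and 1763 in shControl and 1803 and 1791 in shLSD1. The groups did not overlap, and the log2 difference was 0.03 (95% interval -0.11 to 0.17). Mrpl47, a counterpart of another bacterial exit protein, had a signal of 1450 and 1317 in shControl and 1471 and 1544 in shLSD1 (0.12, SE 0.07, limma adjusted p = 0.304). A dimmer probe set of Mrpl47 gave -0.06.

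In the central protuberance, which faces the small subunit, 6 members had a median of 0.02 and 0 passed. They included the member furthest below 0, Mrpl38, whose signal was 1237 and 912 in shControl and 993 and 798 in shLSD1. The groups overlapped, and the arrays of each group stood further apart than the group means (0.44 in shControl and 0.32 in shLSD1, log2 scale). The log2 difference was -0.26 (SE 0.16, limma adjusted p = 0.317). Single arrays decided its size, which was -0.04 without shControl replicate 1, -0.48 without shControl replicate 2, -0.41 without shLSD1 replicate 1 and -0.10 without shLSD1 replicate 2. Mrpl40, in the same region, lay on the other side of 0. Its signal was 1525 and 1670.5 in shControl and 1742 and 1834 in shLSD1 (0.16, SE 0.07, limma adjusted p = 0.168).

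**Figure D2:**
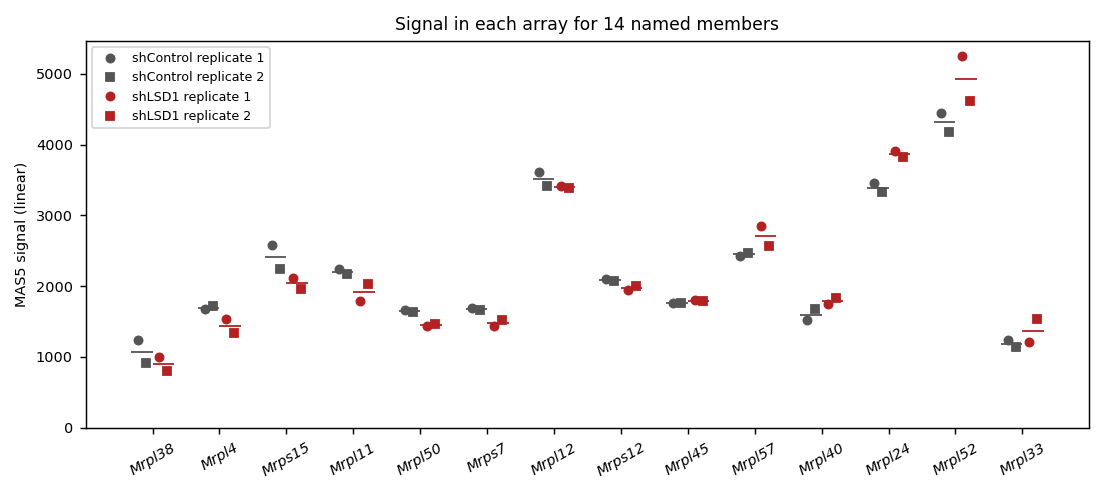
MAS5 signal (linear axis) in each of the 4 arrays for 14 named members, in grey for shControl and red for shLSD1, with circles for replicate 1, squares for replicate 2 and a short line for each group's mean. The 2 shLSD1 points of Mrpl24 (3907 and 3819) lie above both shControl points (3451 and 3327), while the points of Mrpl12 and Mrpl38 overlap between groups.

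Among the other large-subunit members, Mrpl4, the counterpart of a bacterial protein that lines the exit tunnel, came closest to the threshold below 0. Its signal was 1672 and 1716 in shControl and 1529 and 1339 in shLSD1, with no overlap. The log2 difference was -0.24 (SE 0.08, limma adjusted p = 0.0788). Mrpl50, found only in mitochondria, had a signal of 1669.9 and 1639 in shControl and 1434 and 1469 in shLSD1 (-0.19, SE 0.06, limma adjusted p = 0.0821). Mrpl1, whose bacterial counterpart forms the stalk beside the exit of the spent transfer RNA, was among the dimmest, with a signal of 392 and 449.6 in shControl and 347 and 373 in shLSD1 (-0.22, SE 0.12, limma adjusted p = 0.26). A second probe set of Mrpl1, nearly as bright, had 354 and 359.6 in shControl and 341 and 362 in shLSD1, which overlap (-0.02). The second probe set of Mrpl50 gave -0.18. On the chosen probe sets these 3 genes had groups that did not overlap, and none passed the threshold.

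Above 0, Mrpl52 and Mrpl33 matched Mrpl24 in size and not in precision. Mrpl52, found only in mitochondria, had a signal of 4445 and 4185 in shControl and 5246 and 4613 in shLSD1 (0.19, SE 0.07, limma adjusted p = 0.113). Its other probe sets gave 0.05, 0.12 and, on a dim one, -0.18. Mrpl33, the counterpart of a bacterial large-subunit protein, had a signal of 1234 and 1145 in shControl and 1213 and 1531 in shLSD1. Its groups overlapped, and 1 shLSD1 array carried the difference (0.20, SE 0.11, limma adjusted p = 0.281). Mrpl34 (0.16), Mrpl57 (0.15) and Mrpl15 (0.12), also of the large subunit, had groups that did not overlap and limma adjusted p-values of 0.215, 0.182 and 0.244. Other probe sets of these genes often lay on the other side of 0. A dim one of Mrpl34 gave -0.08 and a dim one of Mrpl57 gave -0.30, and with probe sets averaged by gene Mrpl57 lay at -0.07. For Mrpl15 a pair of brighter _x_at probe sets gave -0.12 and -0.01, a dimmer one gave -0.12 and a pair of dim ones gave 0.30 each. Averaged over all its probe sets, with those below the signal filter (-0.59 and 0.31) included, Mrpl15 lay at 0.02.

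In the small subunit, the differences furthest from 0 were below it. Mrps15, the counterpart of a bacterial protein of the small subunit's platform, had a signal of 2587 and 2238 in shControl and 2113 and 1965 in shLSD1. The log2 difference was -0.24 (SE 0.08, limma adjusted p = 0.0900), but a second probe set of Mrps15, nearly as bright, gave 0.10. Mrps7, which nucleates assembly of the small subunit's head in bacteria, had a signal of 1695 and 1668 in shControl and 1439 and 1524 in shLSD1 (-0.18, SE 0.06, limma adjusted p = 0.10).

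Mrps35 and Mrps22, both found only in mitochondria, lay at -0.19 (SE 0.08, limma adjusted p = 0.139) and -0.16 (SE 0.07, limma adjusted p = 0.144), with no overlap between groups. Mrps35 had a signal of 1048 and 976 in shControl and 896 and 872 in shLSD1. Mrps12, the counterpart of the bacterial protein at the decoding site, had a signal of 2106 and 2066 in shControl and 1946 and 2007 in shLSD1 (-0.08, 95% interval -0.21 to 0.06).

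Above 0 in the small subunit were Mrps27 (0.17, SE 0.11, limma adjusted p = 0.348) and Mrps6 (0.15, SE 0.07, limma adjusted p = 0.230). Mrps27 had a signal of 387 and 409.9 in shControl and 426 and 471 in shLSD1. Mrps6 had 2761 and 2698 in shControl and 3237 and 2816 in shLSD1, and its second probe set gave -0.14. Neither gene passed the threshold.

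Mrps18 exists as 3 paralogues that are thought to occupy different places in the ribosome, and 0 of them passed. Mrps18b had a signal of 1638 and 1669 in shControl and 1639.9 and 1550.0 in shLSD1 (-0.05, 95% interval -0.20 to 0.10). Mrps18c had 2679 and 2618 in shControl and 2569 and 2459 in shLSD1 (-0.08, 95% interval -0.21 to 0.06). Mrps18a, which despite its name is part of the large subunit, had 2258 and 1989 in shControl and 1930.2 and 2466 in shLSD1. Its shLSD1 arrays lay on both sides of its shControl arrays, and the interval was wide (0.04, 95% interval -0.23 to 0.31). Mrps30, also placed in the large subunit, lay at -0.06, and Mrps36, which belongs to the oxoglutarate dehydrogenase complex and not to the ribosome, at -0.01.

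The members' other probe sets gave a broader picture. Of the 156 probe sets 130 passed the signal filter, and 33 genes had 54 other probe sets above it. Of these 54, 34 (63.0%) had the sign of the chosen probe set. In a fit over all 19958 single-symbol probe sets above the filter, of which 11.8% passed the threshold, 1 member probe set passed. It was a second probe set of Mrps23, a mitochondria-specific small-subunit gene, with a signal of 1344 and 1363 in shControl and 1055 and 1091 in shLSD1. Its log2 difference was -0.34 (SE 0.07, limma adjusted p = 0.0198), while the brighter probe set of Mrps23 had 1591 and 1679 in shControl and 1511 and 1530.1 in shLSD1 (-0.10). In that fit the Mrpl24 probe set had an adjusted p of 0.0563.

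The 2 other probe sets past 0.5 in size were dim. One for Mrpl38 had a signal of 149.8 and 179 in shControl and 78.0 and 106 in shLSD1 (-0.85, SE 0.24, limma adjusted p = 0.0579). One for Mrpl3, which encodes a large-subunit protein, had 218 and 171 in shControl and 135 and 125 in shLSD1 (-0.57, SE 0.20, limma adjusted p = 0.106). The chosen, brighter probe sets of these genes gave -0.26 and -0.08. Mrpl3 and Mrps23 were picked out for these values.

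**Figure D3:**
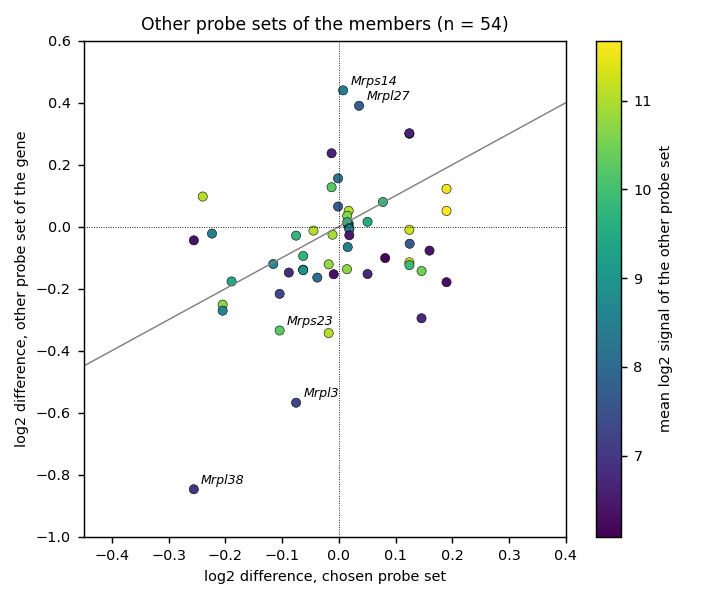
Log2 difference, shLSD1 minus shControl, of the chosen probe set of a gene (horizontal) against that of each other probe set of the same gene above the signal filter (vertical), coloured by the other probe set's mean log2 signal, with the line of equality in grey. Of 54 points, 34 lie in the quadrants of equal sign, and the lowest is the dim second probe set of Mrpl38 at -0.85.

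Mitochondrial ribosomal proteins whose symbols fall outside the pattern were measured by 4 genes. Ptcd3, an RNA-binding protein of the small subunit, fell from a signal of 1299 and 1303 to 1110.4 and 1009 (-0.30, SE 0.08, limma adjusted p = 0.0364). The call was lost without either shControl array (limma adjusted p = 0.183 and 0.181), without shLSD1 replicate 2 (0.0755 by limma), with all genes tested (0.0578) and with no trend of variance on intensity (0.111). With the mean of all its probe sets, whatever their signal, Ptcd3 measured -0.12 (limma adjusted p = 0.783). Dap3, a GTP-binding small-subunit protein, had 2029.9 and 1996 in shControl and 2047 and 1985 in shLSD1 (0.00, SE 0.06, limma adjusted p = 0.987).

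Counts for the genes that work with the ribosome, and for the lists below, are a description only. Of all genes tested, 15.8% passed the threshold and 31% had an unadjusted limma p under 0.05. A list of 14 genes held mitochondrial translation factors together with others such as Lrpprc, Slirp, Oxa1l, Mtfmt and Letm1. In it 0 rose and 0 fell, with a median log2 difference of 0.07, and 2 had an unadjusted limma p under 0.05. Tufm, the elongation factor that brings in aminoacyl-tRNA, had a signal of 721 and 492 in shControl and 552 and 589 in shLSD1 (-0.06, SE 0.17, limma adjusted p = 0.843). Lrpprc, which stabilises mitochondrial messenger RNAs, lay at 0.08 and Oxa1l, which inserts new chains into the inner membrane, at 0.14 (limma adjusted p = 0.491 and 0.294). Of 24 genes for ribosome assembly and rRNA modification, 0 passed, with a median of -0.01 and 3 at an unadjusted limma p under 0.05.

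Of 15 mitochondrial aminoacyl-tRNA synthetases, 2 fell and 0 rose, with a median of -0.01. Nars2, which charges the mitochondrial asparagine tRNA, fell from 933 and 1001 to 528 and 604 (-0.78, SE 0.10, limma adjusted p = 2.27e-03). With the mean of all its probe sets, whatever their signal, Nars2 measured -0.36 and the call was lost (limma adjusted p = 0.294). Rars2, the arginine enzyme, fell from 1124 and 1069.9 to 843 and 838 (-0.38, SE 0.07, limma adjusted p = 0.0129). With shControl replicate 1 or 2 left out it did not pass (limma adjusted p = 0.122 and 0.0774), nor with no trend of variance on intensity (0.0575).

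Of 14 genes for transcription and upkeep of mitochondrial DNA, 1 rose and 0 fell, with a median of 0.01. Top1mt, the mitochondrial topoisomerase, rose from 380.1 and 402.5 to 491 and 537 (0.39, SE 0.11, limma adjusted p = 0.0469). It did not pass with shControl replicate 1 or 2 left out (limma adjusted p = 0.237 and 0.149), nor without shLSD1 replicate 2 (0.117 by limma). Under 5 further alternatives, among them quantile normalization (limma adjusted p = 0.0580), it also did not pass. Tfam, which packages mitochondrial DNA, had 1834 and 1895 in shControl and 1783 and 2032 in shLSD1 (0.03, SE 0.08). Polrmt, the mitochondrial RNA polymerase, had 1532 and 1456 in shControl and 1477 and 1463 in shLSD1 (-0.02, SE 0.07).

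Of 9 tested nuclear regulators of mitochondrial genes, 0 passed, 0 had an unadjusted limma p under 0.05 and the median was -0.05. Nrf1 lay at -0.10 (SE 0.14, limma adjusted p = 0.665), Myc at -0.09 (SE 0.08, limma adjusted p = 0.485) and Ppargc1a, the coactivator of mitochondrial biogenesis, at -0.14 (SE 0.28, limma adjusted p = 0.783). Ppargc1a was near the signal filter, with 81.2 and 82.5 in shControl and 64.9 and 85.2 in shLSD1, so a moderate change in it was not detectable here.

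The gene groups closest to these in role are the proteins of the cytosolic ribosome and the subunits of oxidative phosphorylation. Of 41 tested genes for cytosolic ribosomal proteins, 0 passed and 2 had an unadjusted limma p under 0.05. Their median was -0.01 and their range from -0.22 (Rps20) to 0.25 (Rpl41). Rps20 and Rpl41 were read on probe sets dim for this list. Mean signals in shControl and shLSD1 were 174 and 149 for Rps20 and 274 and 327 for Rpl41. The highest mean in the list was 34583. Of 76 tested subunits of oxidative phosphorylation, 2 rose and 4 fell, with a median of -0.04 and a range from -1.10 (Cox6a2) to 1.2 (Cox7a1). Both ends of that range are muscle isoforms of cytochrome c oxidase subunits.

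**Figure D4:**
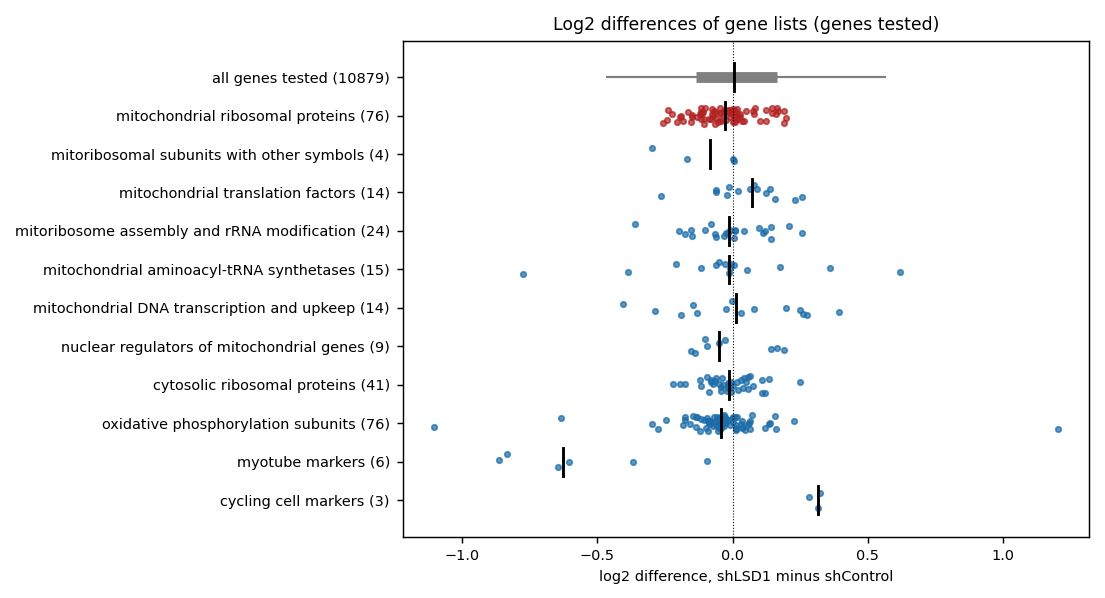
Log2 difference, shLSD1 minus shControl, of the genes tested in each list, 1 point a gene, with a black bar at the list's median. For all 10879 genes the thick grey bar spans the middle 50% and the thin line the 5th to 95th percentile; the 76 mitochondrial ribosomal protein genes (red) lie between -0.26 and 0.20.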

How the data were processed

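Biotin-labelled RNA from 250 ng of total RNA was hybridised to Affymetrix 3′ expression arrays. Per the submitters' processing notes, MAS5 and Affymetrix Expression Console (no version named) made the deposited linear signal intensities. There are 45101 probe sets, with a trimmed mean of 500.003 on every array. Signals under 1 were set to 1 before log2. Gene symbols came from the platform annotation. Genes whose mean log2 signal exceeded 6.03, the median over probe sets, were tested with limma 3.58.1 in R 4.3.3 (lmFit, eBayes with an intensity trend, two-sided, Benjamini-Hochberg threshold 0.05), with no block. The test was run on simulated data: false calls were near the nominal share with variances drawn from the fitted prior, and above it in some runs with each gene's shrunken estimate. The second kind was the criterion at first, failed it, and was then kept beside the first. Promoters came from RefSeq (GRCm38.p6), and the NRF1 motif was shortened to its core after a first count with a longer form.

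Genes named are every member past the threshold, the 10 largest differences each way, a few members of known place, and list genes past the threshold (up to 4 a list) or fixed. Members and lists were chosen with earlier results of these data known. The number of arrays limits the precision. Figures were drawn with matplotlib 3.10.9.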

Additional observations from a re-analysis of the deposited data

How the results depend on the processing

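The count of members past the threshold rests on 1 gene near it. It was 1 with quantile normalization, log2(signal + 32), the stricter filter and robust variance (Mrpl24 each time). It was 1 over every probe set (Mrps23 in place of Mrpl24), and 0 with median centring, no filter, no intensity trend, probe sets averaged by gene and an adjusted p threshold of 0.01. It was 4 with a threshold of 0.1 (Mrpl24 higher, Mrpl4, Mrpl50 and Mrps15 lower). Leaving out each array in turn gave 0 to 5 members, 0 without either shControl array, 2 without shLSD1 replicate 1 (Mrpl33 higher, Mrpl4 lower) and 5 without shLSD1 replicate 2 (Mrpl24, Mrpl52, Mrpl57 and Mrps6 higher, Mrpl11 lower). With the replicate number as a block the count was 4 (Mrpl24 and Mrpl52 higher, Mrpl4 and Mrps15 lower). The labels do not say that the numbers pair the arrays. The deviations of same-numbered arrays from their group means correlated at 0.00287 over the genes tested. Whether such arrays share a culture or a day is not known. Under every one of these settings at most 5 members passed. The cause of these changes was not tested.

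The median log2 difference of the members lay between -0.048 and -0.028 under all alternatives except median centring, where it was -0.050. Centring moved the members' split below and above 0 from 46 and 30 to 57 and 19. It also moved the median over all genes tested, from 0.004 to -0.017. Over all genes tested 1723 passed, 580 to 2192 with an array left out (580 and 582 without shControl replicates 1 and 2), 637 without the intensity trend, 901 with probe sets averaged by gene, 2596 at a threshold of 0.1 and 763 at 0.01. Among 52 other named genes 669 values were computed under alternatives; 45 lost a call, 9 gained one, 0 called values changed sign, and 13 changed sign with no call on either side. The call of Kdm1a held under every alternative run. With 2 arrays a group, differences of a few percent cannot be told from the spread between arrays.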
